A study of Mus musculus with 4 samples.

Results

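The PDGF system and the pericyte markers were examined as a set of 10 genes, the 4 ligands Pdgfa, Pdgfb, Pdgfc and Pdgfd, the 2 receptors Pdgfra and Pdgfrb, and the 4 markers Mcam, Cspg4, Rgs5 and Des. They were chosen by gene symbol, and all 10 were found among the 24346 genes in the expression table. The values come from RNA-seq of bone marrow-derived mesenchymal stem/progenitor cells (mBMSCs), the adherent cells grown from the femoral marrow of wild-type C57BL/6 mice aged 3 months. The cells were transfected either with scrambled siRNA (siScr, 2 samples) or with siRNA against ZBP1 (siZBP1, 2 samples), and RNA was collected after 72 h. ZBP1 is a sensor of nucleic acids in the Z conformation, and the study asked how its depletion alters the lineage specification of these cells. The paper describes 2 siRNAs against ZBP1. Whether a single siRNA, both together or a different siRNA per sample was used for RNA-seq is not stated. Nothing in the sources used here says whether the replicates came from separate cultures or animals. The p-values therefore measure only the spread between these samples, which may be technical.

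Platelet-derived growth factors (PDGFs) are secreted dimers that bind and activate receptor tyrosine kinases on cells of mesenchymal origin. PDGF-A and PDGF-C act mainly through PDGFRα, and PDGF-B and PDGF-D mainly through PDGFRβ, and the active receptors pass the signal through adaptor proteins to the RAS, PI3K and SRC pathways. In blood vessels, endothelial PDGF-B recruits PDGFRβ-bearing mural cells, the pericytes and smooth muscle cells that wrap the vessel wall, and in marrow both receptors are used as surface markers of stromal cells.

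Each value is given in FPKM, fragments scaled to transcript length and to the mapped reads of the library, so that levels can be compared between genes. The FPKM of a sample sum to between 477974 and 492166. The numbers of reads are not given, and from the spacing of the lowest values depths relative to siZBP1 replicate 1 were estimated at 1.40 and 1.87 in siScr cells and 1.61 in the other depleted sample. Zbp1, on chromosome 2, was at 86.0 and 62.0 FPKM in siScr cells and at 11.5 and 11.6 FPKM in ZBP1-depleted cells, a fall in both depleted samples (limma log2 fold change -2.56, SE 0.16, adjusted p = 0.00322). Without siZBP1 replicate 1 its adjusted p was 0.0748, and without siZBP1 replicate 2 it was 0.0654.

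Transcripts of most of the PDGF system were lower after ZBP1 depletion, with Pdgfc as the exception. Pdgfa, Pdgfb, Pdgfd, Pdgfrb and Cspg4 fell, Pdgfc rose, and Pdgfra and Mcam did not pass the test. Rgs5 and Des, with a mean under 1 FPKM over the 4 samples, were not tested. The limma test took log2(FPKM + 1) of the 11959 genes that averaged at least 1 FPKM and called at an adjusted p under 0.05. Thus 5 of the 8 tested members were lower, where 14.8% of all tested genes were, and 1 of 8 was higher, where 13.5% of all tested genes were. The median log2 fold change of the 8 was -0.49, beside 0.00 for all tested genes. This is a description only, since a filter on the mean decides which members enter it. Cspg4 met that filter only through its siScr values, and Rgs5 and Des, higher in ZBP1-depleted cells, fell short of it. The samples of the groups did not overlap for any of the 10 members, with 7 lower and 3 higher in ZBP1-depleted cells. For Mcam this rests on 2.82 FPKM in siScr replicate 1 against 2.81 FPKM in siZBP1 replicate 1. Rgs5 and Des were under 1 FPKM in every sample. Among the 17788 genes above 0 in any sample, 29.3% were lower and 29.0% higher without overlap. All 6 calls were lost when either siZBP1 sample was left out of the fit (0 of 8 called by limma, with 6 of 8 at an unadjusted p under 0.05), and in these fits 23 and 38 genes of the whole table were lower and 22 in each were higher.

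**Figure D1:**
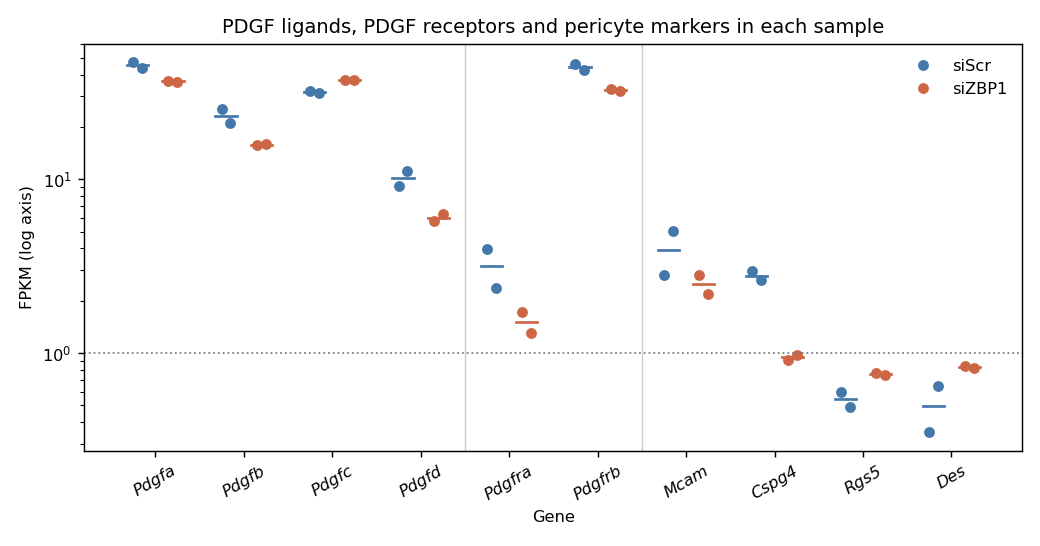
Expression of the 10 genes in each sample in FPKM on a log axis, with points for samples, short lines for group means (n = 2), grey lines between ligands, receptors and markers, and a dotted line at 1 FPKM. The siZBP1 points lie below the siScr points for 7 genes and above them for Pdgfc, Rgs5 and Des.

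The ligand transcripts were abundant. Pdgfa, which encodes the chain found in PDGF-AA and PDGF-AB, lies on chromosome 5 of GRCm38 from 138976014 to 138997370. It was at 47.0 and 43.7 FPKM in siScr cells and at 36.9 and 36.3 FPKM in ZBP1-depleted cells. Both depleted samples lay below both controls, a 1.24-fold lower mean (limma log2 fold change -0.30, SE 0.05, adjusted p = 0.0201). Pdgfb, whose chain binds both receptors, lies on chromosome 15 from 79995874 to 80014977. Its expression was 25.4 and 21.1 FPKM in siScr cells and 15.7 and 15.9 FPKM in ZBP1-depleted cells. The depleted samples were nearly identical, and the siScr samples stood apart from each other by more than the depleted ones did. The mean was 1.48-fold lower (log2 fold change -0.53, SE 0.10, limma adjusted p = 0.0219).

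Pdgfc and Pdgfd encode the ligands that are secreted with a CUB domain and become active once a protease has removed it. Pdgfd, on chromosome 9 from 6168584 to 6378850, was at 9.15 and 11.2 FPKM in siScr cells and at 5.72 and 6.30 FPKM in ZBP1-depleted cells. This was the largest fall among the ligands by the ratio of the means, 1.69-fold (log2 fold change -0.67, SE 0.12, limma adjusted p = 0.0191). Pdgfc, on chromosome 3 from 81036416 to 81214040, was at 32.3 and 31.5 FPKM in siScr cells and at 37.3 and 37.4 FPKM in ZBP1-depleted cells. It was the only member with a called rise, and the rise was small, 1.17-fold (log2 fold change 0.22, SE 0.04, limma adjusted p = 0.0252). The call of Pdgfc was also lost without siScr replicate 1 (adjusted p = 0.0639), without siScr replicate 2 (adjusted p = 0.0641) and without a variance trend (adjusted p = 0.0561). That of Pdgfa was lost without siScr replicate 1 (adjusted p = 0.0611), and that of Pdgfd without siScr replicate 2 (adjusted p = 0.0574).

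Because Pdgfc moved against the other ligands, the composition of the ligand transcripts differed between the groups. The FPKM of the 4 ligands summed to 113.9 and 107.5 in siScr cells and to 95.6 and 95.8 in ZBP1-depleted cells. Pdgfc made up 28.4% and 29.3% of this sum in siScr cells and 39.0% in both depleted samples. There it stood just above Pdgfa, at 38.6% and 37.9%. Pdgfb made up 22.3% and 19.7% of the sum in siScr cells and 16.4% and 16.6% in ZBP1-depleted cells. These shares are a description of the values tested above and were not tested on their own.

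**Figure D2:**
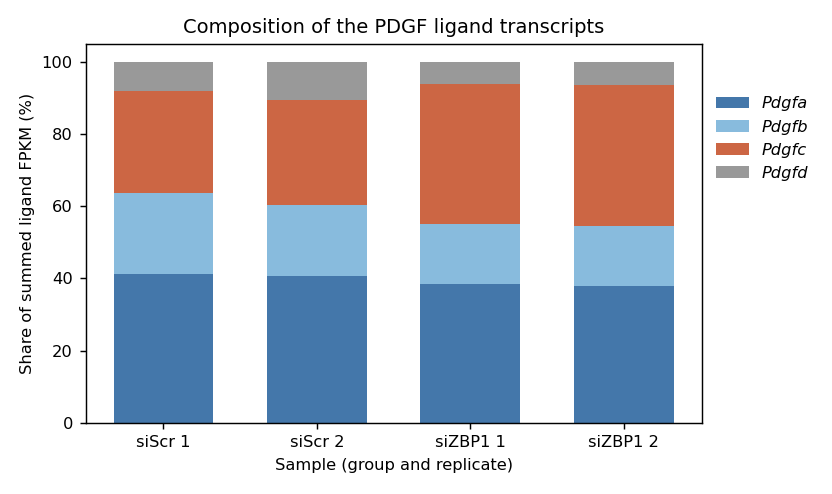
Share of each ligand in the summed FPKM of Pdgfa, Pdgfb, Pdgfc and Pdgfd, in percent, in each of the 4 samples. The Pdgfc segment widens from 28.4% and 29.3% in siScr cells to 39.0% in both siZBP1 samples.

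The promoter window of Pdgfc is printed because it is the only member with a called rise. It comes from RefSeq sequence of GRCm38.p6 and covers the 250 bases before the annotated start, chr3:81036166-81036415, plus strand. Such a window was given for 8 of the 10 members and not for Pdgfb and Pdgfrb. The windows were searched on both strands for the GC box (GGGCGG), the word TATAAA, the CArG box, which serum response factor binds, and the Wnt response word, CTTTG followed by 2 bases that are each A or T. In the sequence below, capitals mark the CArG box, which lies at positions -17 to -8 from the start. Its search pattern reads the same on both strands, so this is a single site. A CArG box was found in 1.47% of 32851 windows of this length, and among the members in that of Pdgfc alone.
Pdgfc: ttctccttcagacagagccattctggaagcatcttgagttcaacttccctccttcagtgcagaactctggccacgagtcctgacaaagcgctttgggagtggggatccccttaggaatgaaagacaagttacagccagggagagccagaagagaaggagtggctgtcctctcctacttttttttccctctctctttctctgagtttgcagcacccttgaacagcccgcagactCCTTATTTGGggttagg

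None of the member windows held the Wnt response word, which 14.8% of all windows hold, and the word TATAAA was found only in that of Pdgfd, at positions -160 to -155. These matches are descriptions of letters in a window and not of binding.

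The receptors were expressed at very different levels. Pdgfrb, the main receptor gene of mural cells, was at 46.2 and 42.5 FPKM in siScr cells, level with Pdgfa, and at 33.0 and 32.0 FPKM in ZBP1-depleted cells. Both depleted samples lay below both controls, a 1.36-fold lower mean (log2 fold change -0.44, SE 0.06, limma adjusted p = 0.0108). Pdgfra, which marks many mesenchymal progenitors and fibroblasts, lies on chromosome 5 from 75152292 to 75198215. It was at 3.97 and 2.36 FPKM in siScr cells and at 1.72 and 1.31 FPKM in ZBP1-depleted cells. The groups did not overlap and the mean was 2.09-fold lower, but the siScr samples stood far apart, and the log2 fold change of -0.70 (SE 0.22, unadjusted 95% interval -1.30 to -0.11) did not pass the test (limma adjusted p = 0.0813). Without siScr replicate 2 it was -0.99 and passed (adjusted p = 0.0428), and without siScr replicate 1 it was -0.42 and did not (adjusted p = 0.161). It also passed with the replicate number as a block (adjusted p = 0.031).

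In every sample Pdgfrb exceeded Pdgfra, by 11.7-fold and 18.0-fold in siScr cells and by 19.2-fold and 24.4-fold in ZBP1-depleted cells. The mean log2 ratio was 3.86 ± 0.44 in siScr cells and 4.43 ± 0.24 in ZBP1-depleted cells (SD, n = 2 each), a difference of 0.58. It ranged from 0.27 without siScr replicate 1 to 0.89 without siScr replicate 2, and was 0.27 with a pseudocount of 1. With 2 samples against 2, the two-sided exact permutation test cannot go below p = 0.333, which is the value obtained.

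**Figure D3:**
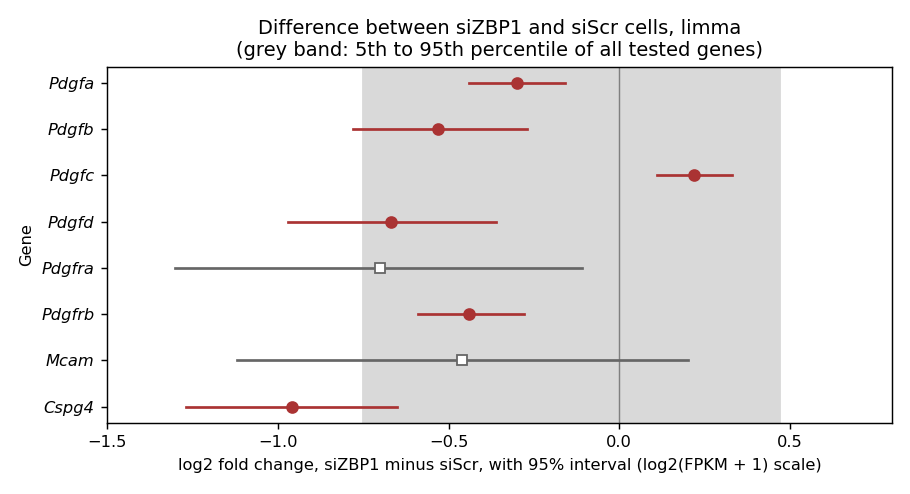
Limma log2 fold change (siZBP1 minus siScr, on the scale of log2(FPKM + 1)) of the 8 tested members, with unadjusted 95% intervals, filled circles for genes past the adjusted threshold, open squares for the others, and a grey band from the 5th to the 95th percentile of all tested genes (-0.75 to 0.47). Cspg4 lies outside the band at -0.96, and Pdgfc is the only point right of 0.

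Among the pericyte markers, Cspg4 changed most. Cspg4, which encodes the proteoglycan NG2 of the pericyte surface, lies on chromosome 9 from 56865033 to 56899870. It was at 2.95 and 2.62 FPKM in siScr cells and at 0.918 and 0.979 FPKM in ZBP1-depleted cells. With a 2.93-fold lower mean, it had the largest fall of the set (log2 fold change -0.96, SE 0.12, limma adjusted p = 0.0094), and on this scale the fold change of so low a gene is understated. With a pseudocount of 0.1 it was -1.46. Both depleted values lay under 1 FPKM, so the gene met the filter on the mean only through its siScr values. Cspg4 had a limma adjusted p of 0.0139 in the fit without that filter. Its promoter window, chr9:56864854-56865032 on the plus strand of GRCm38.p6, is printed as that of the largest fall, without the bases that GENCODE places in the gene and with capitals for 2 GC boxes on the minus strand at positions -120 to -115 and -85 to -80 from the RefSeq start. A GC box was found in 32.7% of all windows, and among the members in those of Cspg4, Des, Mcam and Pdgfa.
Cspg4: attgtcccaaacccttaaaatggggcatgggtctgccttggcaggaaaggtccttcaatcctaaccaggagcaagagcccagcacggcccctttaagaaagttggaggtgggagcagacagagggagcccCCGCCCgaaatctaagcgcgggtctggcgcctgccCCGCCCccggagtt

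Mcam, which encodes the adhesion molecule CD146 of pericytes, endothelial cells and marrow stromal cells, lies on chromosome 9 from 44134469 to 44142727. It was at 2.82 and 5.01 FPKM in siScr cells and at 2.81 and 2.19 FPKM in ZBP1-depleted cells. Replicate 1 of both groups was at about the same level, and the difference rests on the higher siScr replicate 2. The log2 fold change of -0.46 (SE 0.25, unadjusted 95% interval -1.12 to 0.20) did not pass the test (limma adjusted p = 0.235). It moved to -0.13 with siScr replicate 2 left out, and to -0.79 with siScr replicate 1 left out.

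Rgs5, a regulator of G protein signaling and one of the most specific pericyte transcripts, was at 0.597 and 0.492 FPKM in siScr cells and at 0.769 and 0.750 FPKM in ZBP1-depleted cells. Des, which encodes the intermediate filament desmin of muscle and pericytes, was at 0.351 and 0.646 FPKM in siScr cells and at 0.841 and 0.816 FPKM in ZBP1-depleted cells. The depleted samples lay above the controls for both genes. In the fit without a filter on low values, neither passed (log2 fold change 0.19 and limma adjusted p = 0.171 for Rgs5, 0.29 and 0.175 for Des). Rgs5 and Des lie on chromosome 1, from 169655501 to 169695813 and from 75360329 to 75368579. Exons of Des, Pdgfa, Pdgfc, Pdgfra and Mcam overlap an annotated gene on the opposite strand. Since strand-specific counting is not stated, reads from both strands cannot be told apart for these genes. The gene that overlaps Des was at 0 FPKM in all samples, and those on the opposite strand of the other members have no values. Pdgfra also overlaps Mir7025 on the same strand, which was at 0 FPKM in all samples.

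In siScr cells the order of mean levels was Pdgfa (45.3 ± 2.37 FPKM), Pdgfrb (44.3 ± 2.66), Pdgfc (31.9 ± 0.554), Pdgfb (23.3 ± 3.04), Pdgfd (10.2 ± 1.46), Mcam (3.92 ± 1.55), Pdgfra (3.16 ± 1.14), Cspg4 (2.78 ± 0.236), Rgs5 (0.544 ± 0.0741) and Des (0.499 ± 0.208), each as mean FPKM ± SD with n = 2. Pdgfa and Pdgfrb did not differ beyond their spread, nor did Mcam, Pdgfra and Cspg4, nor Rgs5 and Des. In ZBP1-depleted cells Pdgfc came first (37.3 ± 0.0243 FPKM), followed by Pdgfa (36.6 ± 0.425 FPKM) and Pdgfrb (32.5 ± 0.732 FPKM). The gap between Pdgfc and Pdgfa was small. Their order depends on the transcript lengths used for FPKM, and the annotation is not given in the sources used here. For all 10 members the siZBP1 replicates were closer to each other on the log2(FPKM + 1) scale than the siScr replicates were, which held for 56.9% of all tested genes.

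Of the genes outside the set named below as risen or fallen, only Acta2 and Tagln kept their calls when either siZBP1 sample was left out. The label of pericyte markers was checked against 19 other mural cell markers. Of these, 9 were under 1 FPKM in every sample, among them Abcc9, Kcnj8, Vtn and Higd1b, transcripts typical of pericytes, which are named here after their values were seen. The highest value among these named genes was 0.172 FPKM, for Abcc9, and Rgs5 of the set was also under 1 FPKM in every sample. Other markers of the list, likewise named after their values were seen, were detected, with Anpep, an aminopeptidase gene that many other cell types express too, between 171.2 and 183.0 FPKM and Tbx18, a transcription factor gene, between 2.52 and 3.04 FPKM. The markers thus differed in whether they were detected, and the set is described by its genes and not as pericytes. Of the 10 tested, 3 fell, 1 rose and 6 did not pass, with a median log2 fold change of -0.22. The counts of this list and of those below stand beside 14.8% lower and 13.5% higher over all tested genes. Cd248, which encodes endosialin of mural cells and stromal fibroblasts, fell from 16.1 and 13.6 FPKM to 2.29 and 2.62 FPKM (log2 fold change -2.19, SE 0.11, limma adjusted p = 0.00242). Foxs1, a forkhead transcription factor gene, fell from 6.71 and 5.82 FPKM to 0.718 and 1.37 FPKM (limma adjusted p = 0.00647, or 0.0526 without siScr replicate 1). Notch3, which encodes the Notch receptor of arterial mural cells, rose from 1.20 and 1.24 FPKM to 3.64 and 3.63 FPKM (limma adjusted p = 0.00583).

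Markers of other cell types moved with the groups. Of 12 smooth muscle markers, 9 were tested and all 9 fell, with sums of the 12 from 1418.7 to 1432.7 FPKM in siScr cells and from 255.3 to 296.1 FPKM in ZBP1-depleted cells. Acta2, which encodes the smooth muscle actin also found in pericytes, fell from 613.7 and 631.3 FPKM to 110.5 and 128.8 FPKM (limma adjusted p = 0.00155), and Tagln, which encodes transgelin, from 299.7 and 317.2 FPKM to 42.0 and 49.1 FPKM (limma adjusted p = 0.0015). Of 12 mesenchymal stromal markers, 11 were tested, of which 5 fell and 1 rose. The 12 summed to 5152.9 to 6040.8 FPKM in siScr cells and to 3641.6 to 3701.4 FPKM in ZBP1-depleted cells. Col1a1 and Col1a2 made up most of this sum, and Col1a1 most of its fall, so the sum does not describe the other markers. The type I collagen genes of this list differed from each other, as Col1a1 fell from 3066.1 and 2520.1 FPKM to 1128.4 and 1191.4 FPKM (limma adjusted p = 0.0048), while Col1a2 was at 2092.2 and 1806.0 FPKM and at 1829.3 and 1810.7 FPKM and did not pass (limma adjusted p = 0.45).

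Macrophage markers were high in these adherent cultures. All 14 were tested, 9 rose and none fell, and their sum ranged from 9113.0 to 10104.5 FPKM in siScr cells and from 13680.9 to 14395.6 FPKM in ZBP1-depleted cells. The largest part of this sum in every sample was Lyz2. Lyz2, the lysozyme gene of myeloid cells, rose from 2813.8 and 3646.9 FPKM to 5870.9 and 5402.0 FPKM (limma adjusted p = 0.0191, or 0.0859 after quantile normalization), and C1qb, which encodes a chain of complement C1q, from 1129.8 and 1145.4 FPKM to 1608.6 and 1569.9 FPKM (limma adjusted p = 0.0057). Pdgfb and Pdgfc are known to be made by macrophages as well as by other cells. The 12 endothelial markers summed to 11.1 to 11.9 FPKM and to 11.0 to 11.1 FPKM, 7 of them were under 1 FPKM in every sample, and neither of the 2 tested, Vwf and Kdr, passed (limma adjusted p = 0.659 and 0.176). In bulk samples, fewer cells of a type and less RNA per cell cannot be told apart, and the part of these marker changes in the values of the 10 members was not tested.

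The proteins that process or bind PDGFs were described with a list of 10 genes, of which 7 were tested, 2 rose, none fell and 5 did not pass, with a median log2 fold change of 0.11. Plat, which encodes tissue plasminogen activator, a protease that activates PDGF-C, was at 8.89 and 8.55 FPKM in siScr cells and rose to 17.0 and 16.9 FPKM in ZBP1-depleted cells, 1.94-fold (log2 fold change 0.89, SE 0.06, limma adjusted p = 0.00324). Furin, whose product cleaves the precursors of PDGF-A and PDGF-B, was at 49.1 and 47.5 FPKM and rose to 53.8 and 55.7 FPKM (log2 fold change 0.18, limma adjusted p = 0.0453), a call that was lost under median ratio scaling, without the filter, without a variance trend, with a replicate block and with any sample left out (adjusted p from 0.0504 to 0.215). Sparc, which encodes a matrix protein that binds PDGF-B, was at 1679.2 and 1583.4 FPKM and at 1810.9 and 1791.9 FPKM, and did not pass (log2 fold change 0.14, limma adjusted p = 0.115).

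Most genes that carry the signal from the receptors did not pass the test. The same held for all tested genes, of which 14.8% were called lower and 13.5% higher. All 32 genes of this list were tested, 3 fell, 4 rose and 25 did not pass, with a median log2 fold change of 0.00. Nras, which encodes a RAS GTPase, fell from 36.3 and 36.8 FPKM to 21.7 and 23.7 FPKM (log2 fold change -0.66, limma adjusted p = 0.00503). Shc1, the gene of an adaptor that links receptors to RAS, fell from 44.1 and 42.2 FPKM to 28.8 and 27.5 FPKM (limma adjusted p = 0.00485), and Fyn, which encodes a SRC family kinase, from 29.2 and 27.5 FPKM to 18.7 and 19.0 FPKM (limma adjusted p = 0.00583). The other 29 genes lay between log2 fold changes of -0.28 and 0.39.

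Of the 10 genes whose products attenuate the receptors, all were tested, 2 rose, none fell and 8 did not pass. Their median log2 fold change was 0.12. Of all tested genes, 13.5% were called higher and 14.8% lower. Ptprj, which encodes a phosphatase that acts on PDGFRβ, rose from 29.7 and 31.8 FPKM to 42.2 and 40.3 FPKM (log2 fold change 0.41, SE 0.06, limma adjusted p = 0.0108). Sh2b3, the gene of the adaptor LNK, rose from 24.9 and 26.4 FPKM to 32.7 and 31.2 FPKM (limma adjusted p = 0.0205). Without siScr replicate 1 neither passed (adjusted p = 0.0519 for Ptprj and 0.0777 for Sh2b3). Ptpn2, another phosphatase gene, was at 16.6 and 13.7 FPKM and at 12.1 and 11.3 FPKM and did not pass (limma adjusted p = 0.0745), but it was called lower with a replicate block (adjusted p = 0.0366) and without siScr replicate 2 (adjusted p = 0.0481).

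Several genes that growth factors induce early fell. Of 16 such genes, 14 were tested, 7 fell, 1 rose and 6 did not pass, with a median log2 fold change of -0.39. Fosl1, named here after its values were seen, is counted among those that fell. It was at 0.872 and 0.748 FPKM in ZBP1-depleted cells and met the filter on the mean only through its siScr values. Ctgf, which encodes a matricellular protein, fell from 322.9 and 361.0 FPKM to 119.1 and 132.4 FPKM (log2 fold change -1.44, SE 0.08, limma adjusted p = 0.00277). Myc, a transcription factor gene of cell growth, fell from 23.2 and 19.7 FPKM to 9.34 and 10.1 FPKM (limma adjusted p = 0.00526), and Egr1, an immediate early transcription factor gene, from 10.7 and 11.1 FPKM to 4.45 and 5.19 FPKM (limma adjusted p = 0.00503). These genes respond to many stimuli besides PDGF, and PDGF activity itself was not measured.

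**Figure D4:**
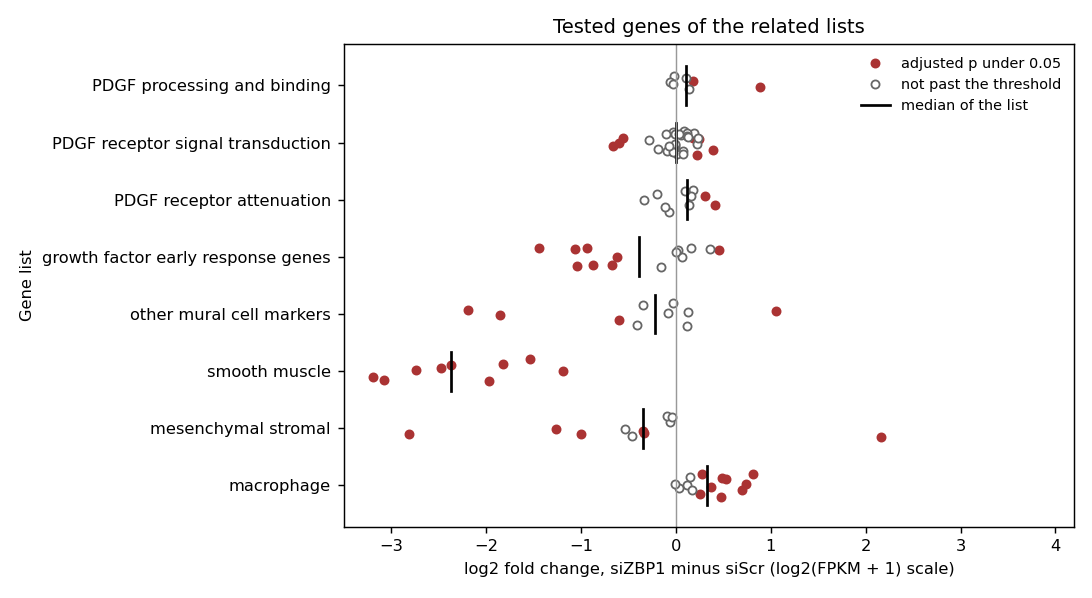
Limma log2 fold change (siZBP1 minus siScr, on the scale of log2(FPKM + 1)) of the tested genes of 8 related lists, with filled points for genes past the adjusted threshold, open points for the others and a black line at each median. The smooth muscle genes all lie left of 0 with a median of -2.37, the signal transduction genes centre on 0.00 and the macrophage genes have a median of 0.33.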

How the data were processed

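RNA-seq was performed by the authors on 2 siScr and 2 siZBP1 samples. Per the paper's methods, reads of TruSeq libraries were aligned by Tophat (build mm10 in the submitters' processing notes, which also name Cufflinks), and FPKM were extracted with HTSeq. The deposited values are FPKM per gene symbol and sample, and the group means deposited beside them match the replicates within 0.001 FPKM. Annotation, strand setting and filters are not given in the sources used here. No read counts were used, so no counting error was computed.

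Groups were compared by limma 3.58.1 in R 4.3.3 on log2(FPKM + 1), two-sided, with a trended variance, among genes averaging at least 1 FPKM, and with Benjamini-Hochberg adjustment over all tested genes at 0.05. Fold changes are on this scale, which understates those of low genes, and folds named as such are ratios of group means. The script was tested on simulated data with changes larger than that of any member, in genes more abundant than Cspg4, Pdgfra and Mcam. It was not tested on changes as small as those of the members. The members and the 5 pathway lists and 7 cell type lists were chosen with earlier results of these data known, and lists were described by counts and medians. Genes named were all members, Zbp1, the 3 tested genes with the largest change in each pathway list and the 2 most abundant genes of each cell type list, of which 1 is not reported here. Relative depth was taken from the most frequent ratio between samples among genes under 0.15 FPKM in both. Positions come from GENCODE M21 (GRCm38, the build named mm10), and promoters from RefSeq (GRCm38.p6). Alternatives were other pseudocounts (0.1 and 0.5), filters (none, or a mean of at least 5 FPKM) and scalings, no variance trend, a replicate block, a 1.5-fold limit and leaving out each sample. Python 3.11.15 was used with numpy, pandas and matplotlib.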

Additional observations from a re-analysis of the deposited data

How the results depend on the processing

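Under the settings with all samples that used the adjusted p alone, 46 of 47 values of the 6 called members kept their call and none changed sign. The exception was Pdgfc without a variance trend, where 0 members were called higher. With the further limit of 1.5-fold by the group means, 2 members were called lower and 0 higher, and 853 and 369 genes in all, fewer by construction. With a sample left out, the members called lower by limma ranged from 0 to 5 and those called higher were 0 in all 4 fits, the genes called lower ranged from 23 to 1297 and those called higher from 22 to 1019, and the log2 fold change of Zbp1 ranged from -2.79 to -2.33. The lone sample of the reduced group was taken to share the spread of the full group. Without a siZBP1 replicate the adjusted p of the 6 called members lay between 0.0797 and 0.16, with directions kept. The difference in the log2 ratio of Pdgfrb to Pdgfra lay between 0.27 and 0.89 with a sample left out and was 0.27 with a pseudocount of 1. Among other named genes, with a sample left out, Col1a2 ranged from -0.20 to 0.01, changing sign without siScr replicate 1, and Vwf from -0.21 to 0.05, changing sign without siScr replicate 2, and neither was called in any fit run.

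The replicate numbers are shared by both groups, but with 2 numbers they are not shown to pair the samples (correlation of the deviations of replicate 1 from the group means -0.063 over 11959 genes). With the replicate block, 6 members were lower and 1 was higher, with Pdgfra called (adjusted p = 0.031), Ptpn2 and Pf4 were also called and Furin was not, and the counts over all genes were 1654 lower and 1465 higher. Depth limits the values under 1 FPKM most, and without numbers of reads their counting error is unknown.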

Other observations

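Markers of further cell types with which the members are shared were low. Of 8 skeletal muscle markers, which share Des with pericytes, 7 were under 1 FPKM in every sample and 4 were at 0 in all samples. Acta1, the skeletal actin gene, fell from 2.96 and 3.51 FPKM to 0.462 and 0.639 FPKM (limma log2 fold change -1.45, adjusted p = 0.00585). The call was lost when either siZBP1 sample was left out. Both depleted values lay under 1 FPKM, so Acta1 met the filter on the mean only through its siScr values. Mylpf, the gene of a fast muscle myosin light chain, was at 0.635 and 0.396 FPKM in siScr cells and at 0.745 and 0.314 FPKM in ZBP1-depleted cells. Of 5 glial precursor markers, whose cells express Cspg4 and Pdgfra, 2 were at 0 in all samples. Sox10, a transcription factor gene of glia, was at 0.171 and 0.566 FPKM in siScr cells and at 0.796 and 1.03 FPKM in ZBP1-depleted cells. It had a mean under 1 FPKM and was not tested.

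Platelets and their precursors store PDGF-B. Of the markers listed for these cells, 2 were tested, and the other 4 averaged under 1 FPKM and were not. Of 6 markers, Pf4, a chemokine gene also expressed by macrophages, was at 34.4 and 26.5 FPKM in siScr cells and at 41.3 and 40.0 FPKM in ZBP1-depleted cells and did not pass (limma adjusted p = 0.0742), but it was called higher with a replicate block (adjusted p = 0.0318) and without siScr replicate 1 (adjusted p = 0.0322). Gp1bb, a platelet glycoprotein gene, was at 1.70 and 1.08 FPKM and at 1.02 and 1.04 FPKM (limma adjusted p = 0.391).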
